A study of Sus scrofa with 6 samples.

Results

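Splicing factors are described here from RNA-seq of 2 kinds of pig cells. The genes were taken by name: those whose Ensembl pig symbol begins with SRSF, HNRNP, SNRP, SF3A, SF3B or LSM followed by a number or letter, or with PRPF followed by a number. This rule found 61 of 20131 genes in the table, in 6 classes: 10 SR protein genes, 14 hnRNP genes, 7 genes of Sm and other snRNP proteins, 6 SF3 genes, 13 Lsm genes and 11 PRPF genes. The genes were thus chosen by symbol and no measured value entered the rule itself. The group was proposed, however, after the levels in these 6 libraries had been looked at, so counts over it are descriptions. Related genes whose rows have no symbol were not analysed here.

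The pgEpiSC are pig stem cell lines from the epiblast before gastrulation, labelled as embryonic day 10 (4 libraries). They were set against pEF, porcine embryonic fibroblasts of fetal stage, labelled embryonic day 30 (2 libraries). The series design calls the libraries of each group biological replicates; no genotype, strain, sex or treatment is given for either, and whether the 4 pgEpiSC libraries come from separate lines is not given in the sources used here. All libraries were strand-specific and made from total RNA depleted of rRNA.

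Pre-mRNA splicing is carried out by the spliceosome, which is built from small nuclear RNAs and their proteins. A ring of Sm proteins sits on the U1, U2, U4 and U5 RNAs, and a ring of Lsm proteins on U6 RNA, while the SF3A and SF3B complexes help U2 hold the branch point and PRPF proteins act in the tri-snRNP and in later steps. SR proteins mostly promote the use of exons and hnRNPs often counter them, so the balance among them sets which exons are kept; in mouse and human pluripotent cells splicing programmes differ from those of differentiated cells.

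Levels are given as scaled TPM, that is the deposited TPM of a library divided by its median-ratio factor. This was needed because the listed genes of a library sum to between 93556 and 320206 TPM, not to 1000000, and the factors ran between 0.576 and 2.17. TPM is a level per transcript length, so levels of different genes can be set side by side; how many reads lie behind a value is not known. All 7 epiblast markers in the table were called higher in pgEpiSC, with summed levels between 482 and 837 scaled TPM there against 0.205 and 0.692 in pEF. All 8 fibroblast markers in the table were called lower, at 1.83 to 12.7 scaled TPM in pgEpiSC against 1029 and 1687 in pEF. The 4 endothelial and 5 blood and immune markers in the table reached 1 scaled TPM in no library. Libraries 1 and 4 of pgEpiSC were the closest pair (Pearson r = 0.989 on log2 values across genes, against 0.945 to 0.966 for the other pgEpiSC pairs), a description across genes that share their library.

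Taken as one body, splicing factor RNA held a larger share of the listed TPM in pgEpiSC. The 61 genes held 1.45, 1.44, 1.51 and 1.43% of all listed TPM in pgEpiSC libraries 1 to 4, against 0.628 and 0.661% in pEF libraries 1 and 2. The groups did not overlap, at 1.46 ± 0.0378% in pgEpiSC (SD, n = 4) and 0.644 ± 0.0238% in pEF (SD, n = 2). Being a ratio within a library, this share does not depend on scaling. Against the TPM of genes with a symbol alone, a measure chosen after the data were seen, the shares were 2.47 ± 0.109% in pgEpiSC and 0.837 ± 0.03196% in pEF. A larger share can come from more RNA of these genes or less of others, which a share does not tell apart.

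**Figure D1:**
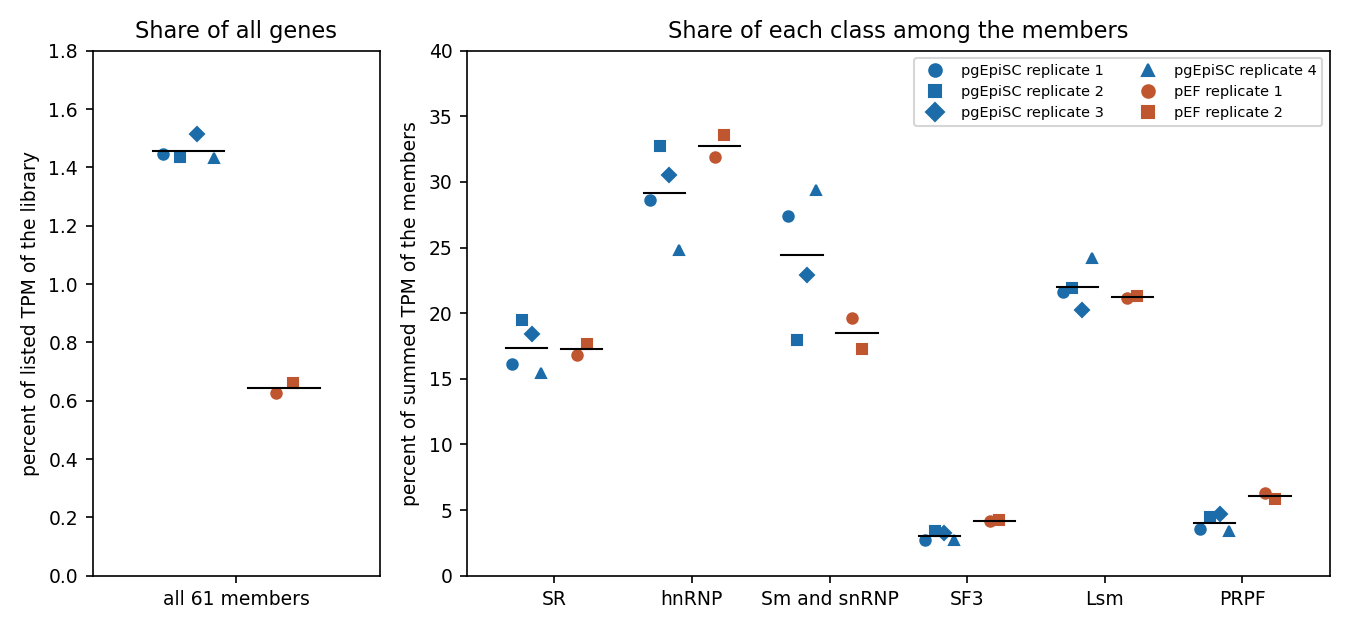
Left: the 61 splicing factor genes as a percent of the listed TPM of each library. Right: each class as a percent of the summed TPM of the 61 genes; blue points are the 4 pgEpiSC and orange points the 2 pEF libraries, and black lines are group means. The share of all genes stood at 1.43 to 1.51% in pgEpiSC and at 0.628 and 0.661% in pEF, while only the SF3 and PRPF shares separated the groups among the classes.

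Of the 61 genes, 59 had at least 1 TPM in at least 2 libraries and were tested with limma in a fit over all 10424 such genes. At a Benjamini-Hochberg adjusted p below 0.05, 40 of the 59 rose in pgEpiSC (67.8%) where 27.0% of all tested genes did, and 3 fell where 30.9% of all tested genes did; 16 were not called. By at least 1 log2 unit 25 rose, where 13.8% of all tested genes did. Every pgEpiSC library lay above both pEF libraries for 46 genes and below both for 3, where the percentages over all tested genes are 34.5 and 35.9. On the values as deposited 29 rose, where 18.0% of all tested genes did, and 0 fell, where 9.43% did (limma, also 0 at an unadjusted p below 0.05). On both scales 28 genes rose, and the share of all tested genes that did so is not given here. Scaling moved the median log2 fold over all tested genes to 0.02, against 0.48 without it. The shift was not the same for every gene. SRSF1 stood at 1.56 scaled and 2.18 as deposited, and SRSF12, at a low level, at 1.69 and 1.98.

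Calls rested heavily on having 2 pEF libraries. Without pEF replicate 1, 13 of the 59 were called higher, where 17.0% of all tested genes were, and 2 lower; without pEF replicate 2 the counts were 16, where 19.3% were, and 1. The median log2 fold over the 59 was 0.87 with all libraries. P-values measure the spread between these libraries only. By class, 4 and 4 SR, 2 and 3 hnRNP, 3 and 3 Sm and snRNP, 0 and 1 SF3, 2 and 2 Lsm, and 2 and 3 PRPF genes were called higher without pEF replicate 1 and 2. The genes called higher with any 1 of the 6 libraries left out were SRSF1, SRSF2, SRSF7, SRSF12, HNRNPA1, HNRNPD, SNRPA, SNRPD1, SNRPF, LSM3, LSM6, PRPF3 and PRPF4. The share of all tested genes that held their calls in this way is not given here, so these names are a description.

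The classes differed in how far they were raised. The median log2 fold was 1.83 for the Sm and snRNP genes, 1.47 for SR genes and 1.19 for hnRNP genes, and it was 0.72 for Lsm, 0.63 for PRPF and 0.61 for SF3 genes, beside 0.02 for all tested genes. The Lsm median was the least steady of the lower 3: less that of all genes it was between 0.54 and 1.09 with a library left out, highest without pgEpiSC replicate 2. As deposited, less the median of all genes, the order was the same for the first 3 classes at 1.92, 1.52 and 1.33, and the others stood at 0.82, 0.67 and 0.71. Members are not replicates of a class, so no test was made between classes. Within each library, SF3 genes held 3.03 ± 0.372% of the summed splicing factor TPM in pgEpiSC and 4.18 ± 0.0725% in pEF, and PRPF genes 4.04 ± 0.618% in pgEpiSC and 6.08 ± 0.321% in pEF (SD, n = 4 and 2). For both classes every pgEpiSC library lay below both pEF libraries. The shares of the SR, hnRNP, Sm and Lsm classes overlapped between the groups. With the U6 and U7 genes alone, the Lsm share was 20.8 ± 1.69% in pgEpiSC and 18.4 ± 0.231% in pEF, and the groups no longer overlapped.

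**Figure D2:**
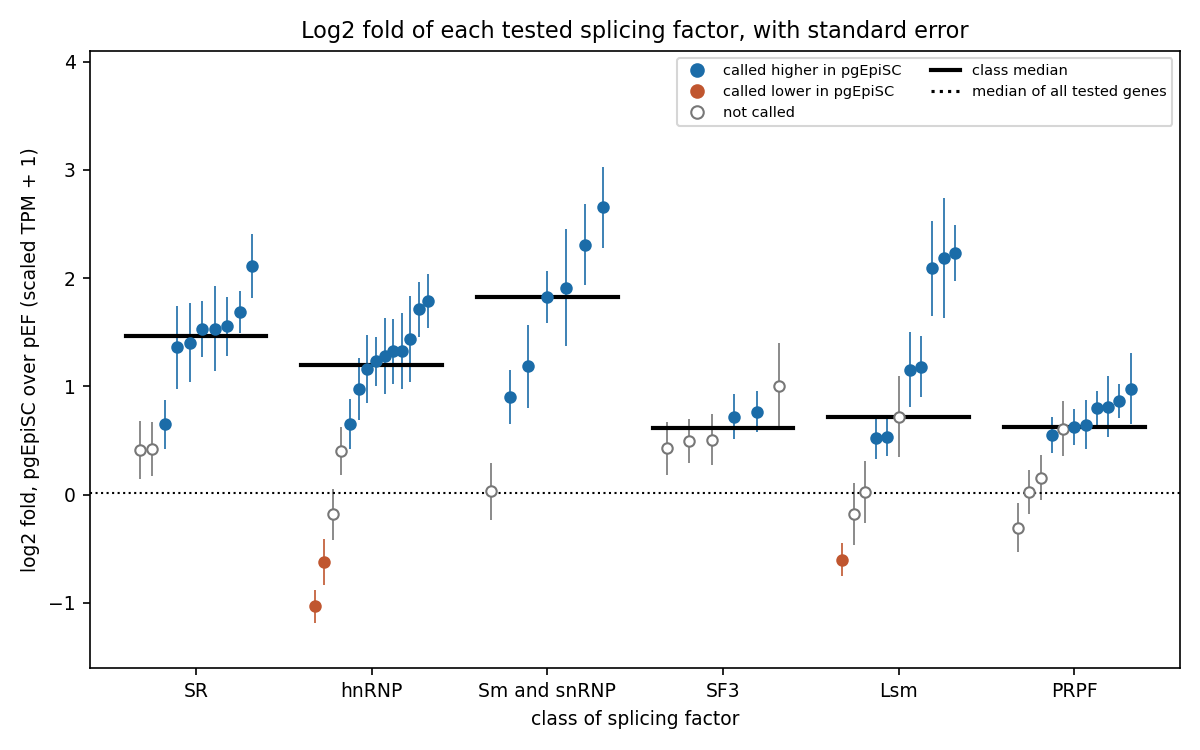
Log2 fold of each of the 59 tested genes, pgEpiSC over pEF, on log2(scaled TPM + 1), by class; bars are standard errors, thick lines class medians and the dotted line the median of all tested genes. Sm and snRNP genes had the highest median (1.83), no SF3 or PRPF gene was called with a fold of 1 or more, and 3 genes (HNRNPUL2, HNRNPUL1 and LSM11) were called lower.

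The Sm and snRNP genes had the highest median fold of the 6 classes, and partners within the Sm ring differed. Of the ring, the rule found only SNRPE, SNRPF, SNRPD1 and SNRPD2, so the ring is covered in part. Of 7 genes 6 rose, where 27.0% of all tested genes did, and SNRPD2 was not called. In this class 0 fell (limma, also 0 at an unadjusted p below 0.05). SNRPF (ENSSSCG00000000895), a subunit of the Sm ring, was at 79.2, 39.9, 39.2 and 79.6 scaled TPM in pgEpiSC libraries 1 to 4, against 7.95 and 8.18 in pEF libraries 1 and 2. The lowest pgEpiSC library was far above both pEF libraries, and the log2 fold was 2.65 ± 0.37 (SE, adjusted p = 0.000528), the highest of the 59.

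SNRPD1 (ENSSSCG00000003701), a further ring subunit, was at 65.5, 31.9, 33.2 and 66.9 scaled TPM in pgEpiSC and at 8.06 and 9.15 in pEF, with no overlap and a log2 fold of 2.31 ± 0.38 (adjusted p = 0.00114). SNRPE (ENSSSCG00000023562), another ring subunit and the splicing factor gene with the highest level in pgEpiSC, had 585, 193, 272 and 648 scaled TPM in pgEpiSC against 109.5 and 89.8 in pEF. After scaling its pgEpiSC libraries spread more than those of SNRPF, and all lay above pEF. As deposited they were at 412, 419, 443 and 472 TPM, relatively closer together than those of SNRPF (55.7, 86.7, 63.8 and 58.1). The fold of SNRPE on scaled values was 1.91 ± 0.54 (limma, adjusted p = 0.0162). That call was lost without pEF replicate 1 or 2, at folds of 1.99 and 1.73. SNRPE has processed pseudogenes in mammals, and how reads shared with such copies were assigned is not given in the sources used here.

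SNRPD2 (ENSSSCG00000033500), which pairs with SNRPD1 in ring assembly, did not follow. It was at 36.0, 31.3, 27.1 and 40.6 scaled TPM in pgEpiSC and at 35.5 and 30.04 in pEF, groups that overlapped, with a fold of 0.03 ± 0.26 (adjusted p = 0.928). Within each library, the ratio of SNRPD2 to SNRPD1 was 0.550, 0.981, 0.815 and 0.606 in pgEpiSC against 4.40 and 3.28 in pEF. The ratio, chosen after the values were seen, is free of scaling and did not overlap between the groups. It shows unequal change of the 2 genes, not that SNRPD2 stayed the same: as deposited its fold was 0.66, above the all-gene median and not called (adjusted p = 0.330).

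Proteins particular to U1 and U2 moved as well. SNRPA (ENSSSCG00000002998), the RNA-binding A protein of U1, was at 28.2, 33.1, 21.6 and 25.5 scaled TPM in pgEpiSC and 6.40 and 7.29 in pEF, a fold of 1.83 ± 0.24 (adjusted p = 0.000371) with the groups well apart. SNRPB2 (ENSSSCG00000037602), its relative in U2, was at 68.1, 35.1, 36.6 and 76.2 in pgEpiSC against 23.0 and 20.7 scaled TPM in pEF (1.18 ± 0.38, adjusted p = 0.0282), and SNRPA1, the partner of SNRPB2 in U2, averaged 19.3 ± 4.11 in pgEpiSC against 9.69 ± 0.357 scaled TPM in pEF (0.90 ± 0.25, adjusted p = 0.0144). SNRPB2 made up 65.0 ± 10.3% of the sum of SNRPB2 and SNRPA in pgEpiSC and 76.1 ± 2.999% in pEF, shares that overlapped. The call of SNRPB2 was lost without pgEpiSC replicate 1 or 4 (1.06 and 0.999) and without pEF replicate 1 or 2 (1.19 and 1.08), and that of SNRPA1 without either pEF library (0.88 and 0.84).

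**Figure D3:**
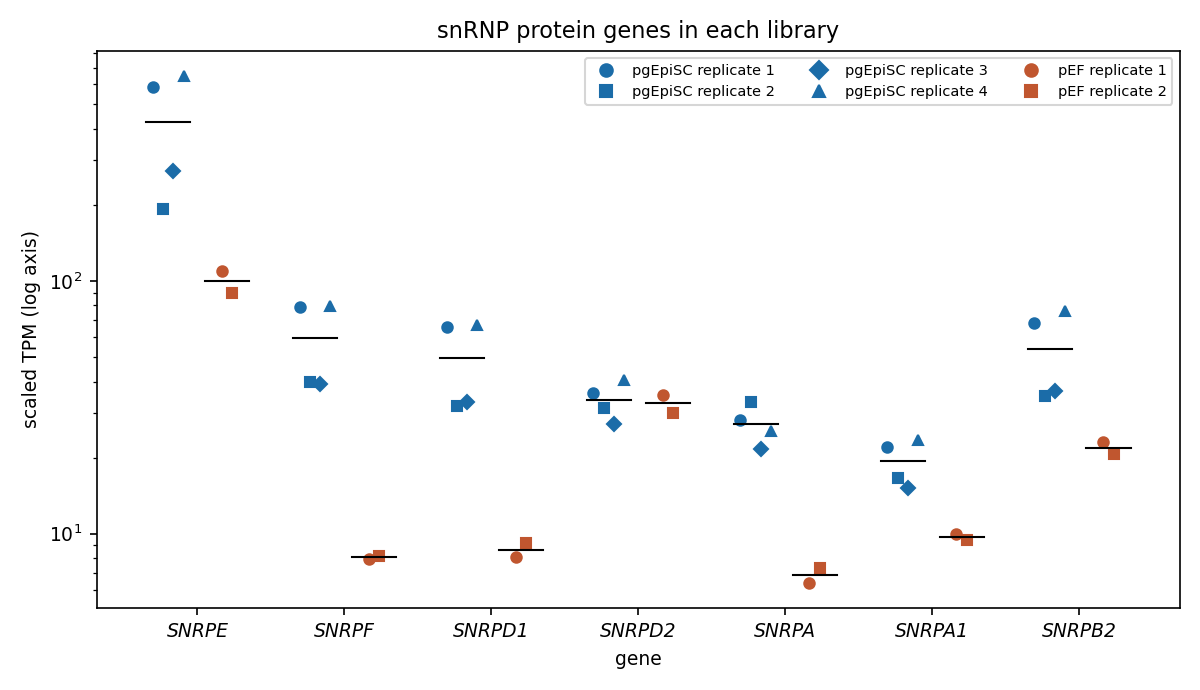
Scaled TPM (log axis) of the 7 Sm and snRNP genes in each library; blue symbols are pgEpiSC libraries, orange symbols pEF libraries, and black lines group means. SNRPF, SNRPD1 and SNRPA stood well apart between the groups, SNRPD2 overlapped, and pgEpiSC libraries 1 and 4 lay above libraries 2 and 3 for each gene but SNRPA.

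Of the 6 classes, Sm and snRNP genes varied most among the pgEpiSC libraries after scaling. The highest library exceeded the lowest by a median of 2.03 times in this class, against 1.67 times over all tested genes, and by 2.18 times in the U6 ring within the Lsm class. Libraries 1 and 4 both lay above libraries 2 and 3 for 6 of the 7 snRNP genes, 8 of 11 tested Lsm genes, 6 of 10 SR genes and 6 of 14 hnRNP genes, but for 2 of 6 SF3 and 4 of 11 PRPF genes. Over all tested genes the share was 32.4%, and over the 59 splicing factors 54.2%. This split was chosen after the values were seen, and it depends on scaling. The factors were 0.704, 2.17, 1.63 and 0.729 in pgEpiSC libraries 1 to 4. As deposited, SNRPF was at 55.7, 86.7, 63.8 and 58.1 TPM in these libraries and SNRPD1 at 46.2, 69.4, 54.1 and 48.8. For both, libraries 1 and 4 then lay below libraries 2 and 3. SNRPE was at 412, 419, 443 and 472 TPM as deposited, without such a split. The summed level of the 3 proliferation markers in the table (TOP2A, CCNB1 and CDK1) was likewise higher in libraries 1 and 4, at 147, 84.2, 109 and 157 scaled TPM in pgEpiSC libraries 1 to 4, and it was 16.5 and 25.8 in pEF. Between the groups the proliferation markers were higher where the splicing factors were. Within pgEpiSC they were, after scaling, high in the same libraries as most snRNP and Lsm genes. The share of listed TPM held by all 61 genes, which is free of scaling, was not higher in libraries 1 and 4. The part of the proliferation markers in the result was not tested.

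SR proteins, which bind exons and carry a domain rich in arginine and serine, were raised in most cases. Of 10 genes 8 rose, where 27.0% of all tested genes did, and SRSF6 and SRSF9 were not called. In this class 0 fell (limma, also 0 at an unadjusted p below 0.05). SRSF1 (ENSSSCG00000017626), the founding member of the family, was at 80.1, 92.1, 64.8 and 85.6 scaled TPM in pgEpiSC and at 24.9 and 28.3 in pEF. The lowest pgEpiSC library was above both pEF libraries, with a fold of 1.56 ± 0.27 (adjusted p = 0.00167).

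SRSF2 (ENSSSCG00000036592), long known as SC35, was at 69.1, 72.9, 59.4 and 74.6 in pgEpiSC against 21.04 and 25.4 scaled TPM in pEF (1.53 ± 0.26, adjusted p = 0.00135). SRSF3 (ENSSSCG00000001564), the smallest classical SR protein, which also takes part in mRNA export, had 121, 69.2, 54.2 and 91.8 in pgEpiSC against 27.1 and 32.7 scaled TPM in pEF (1.40 ± 0.36, adjusted p = 0.0110). Groups did not overlap for either. Without pEF replicate 1 or 2 the call of SRSF3 was lost (1.21 and 1.498). In pgEpiSC the levels of SRSF3, SRSF1 and SRSF2, at 83.9 ± 28.9, 80.7 ± 11.6 and 68.99 ± 6.79 scaled TPM, were the highest of the class. Within each library of both groups SRSF1 lay above SRSF2. SRSF3 lay above SRSF1 in pgEpiSC libraries 1 and 4 and below it in libraries 2 and 3. Differences among the 3 genes were not tested.

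The largest fold of the class was that of SRSF7 (ENSSSCG00000008484), a relative of SRSF3 with a zinc knuckle. Its levels were 59.6, 34.5, 40.6 and 57.3 scaled TPM in pgEpiSC, against 9.73 and 10.4 in pEF, which gave a fold of 2.11 ± 0.30 (adjusted p = 0.000514). SRSF12 (ENSSSCG00000032781), a little-expressed relative of SRSF10, was at 4.34, 2.99, 3.11 and 4.94 in pgEpiSC against 0.476 and 0.493 scaled TPM in pEF (1.69 ± 0.19, adjusted p = 0.000187). Both sets stood apart without overlap, and the means of SRSF12 differed by 7.93 times, more than its fold on log2(scaled TPM + 1) shows. SRSF12 made up 12.01 ± 2.43% of the sum of SRSF12 and SRSF10 in pgEpiSC and 4.50 ± 0.166% in pEF, without overlap.

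Among the other SR genes, SRSF5 and SRSF10 rose by 1.53 ± 0.39 and 1.36 ± 0.38 (adjusted p = 0.0106 and 0.0157) and SRSF11 by 0.65 ± 0.23 (adjusted p = 0.0387). With pEF replicate 1 or 2 left out these calls were lost, at 1.58 and 1.39 for SRSF5, 1.32 and 1.32 for SRSF10, and 0.69 and 0.51 for SRSF11. SRSF11 was also no longer called without pgEpiSC replicate 1 or 4 (0.63 and 0.65), and it was not called as deposited (1.27, adjusted p = 0.0559). SRSF6 averaged 38.9 ± 5.84 in pgEpiSC against 28.6 ± 0.601 scaled TPM in pEF and SRSF9 13.2 ± 3.51 in pgEpiSC against 9.56 ± 1.79 in pEF, with folds of 0.42 ± 0.25 and 0.41 ± 0.27 (adjusted p = 0.186 and 0.223).

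hnRNPs are abundant RNA-binding proteins of the nucleus, and their class held 2 of the 3 genes that fell. Of 14 genes 10 rose, where 27.0% of all tested genes did, and 2 fell, where 30.9% did. HNRNPLL and HNRNPR were not called. HNRNPA2B1 (ENSSSCG00000036350) was at 233, 115, 96.4 and 154 scaled TPM in pgEpiSC, against 48.8 and 54.4 in pEF (1.44 ± 0.40, adjusted p = 0.0145). HNRNPH1 (ENSSSCG00000014022), which binds runs of guanine, was at 168, 89.5, 125 and 173 in pgEpiSC against 54.1 and 51.8 scaled TPM in pEF (1.33 ± 0.35, adjusted p = 0.0125).

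HNRNPK (ENSSSCG00000022760), a KH-domain protein that binds cytosine-rich RNA, was at 142, 103, 94.5 and 148 in pgEpiSC against 52.2 and 53.8 scaled TPM in pEF (1.16 ± 0.31, adjusted p = 0.0136). These 3 genes had the highest levels of the class and did not overlap between groups. HNRNPA2B1 lay above HNRNPK in every pgEpiSC library. Otherwise the order of any pair of them changed between the libraries of a group, and differences among them were not tested. All 3 calls were lost with a pEF library left out, at 1.30 and 1.48 for HNRNPA2B1, 1.29 and 1.26 for HNRNPH1 and 1.07 and 1.14 for HNRNPK (without pEF replicate 1 and 2).

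HNRNPD (ENSSSCG00000009249), also known as AUF1 and a binder of AU-rich elements, had the largest increase of the class, with 21.6, 26.7, 17.2 and 18.98 scaled TPM in pgEpiSC and 4.49 and 6.31 in pEF (1.79 ± 0.25, adjusted p = 0.000514). HNRNPA1 (ENSSSCG00000000288), a repressor of many exons, was at 60.2, 53.8, 42.4 and 52.4 in pgEpiSC against 14.1 and 16.2 scaled TPM in pEF (1.71 ± 0.25, adjusted p = 0.000702). The groups were well apart for both. HNRNPA1 has many processed pseudogenes in mammals, so its level is uncertain for the same reason as that of SNRPE.

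HNRNPM, HNRNPH3, HNRNPDL, HNRNPU and HNRNPL rose by 1.32 ± 0.30, 1.28 ± 0.35, 1.23 ± 0.23, 0.98 ± 0.28 and 0.65 ± 0.23. Without pEF replicate 1 these 5 calls were lost, at 1.35, 1.15, 1.01, 0.85 and 0.61, and without pEF replicate 2 those of HNRNPM, HNRNPH3, HNRNPU and HNRNPL were, at 1.20, 1.32, 0.998 and 0.60. HNRNPU was also lost without pgEpiSC replicate 1 (0.94), and HNRNPL without pgEpiSC replicate 1, 2 or 4 (0.63, 0.58 and 0.69) and as deposited (1.26, adjusted p = 0.0707). HNRNPR averaged 26.1 ± 2.31 in pgEpiSC against 19.4 ± 0.783 scaled TPM in pEF (0.40 ± 0.22, adjusted p = 0.150).

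HNRNPUL2 and HNRNPUL1 went the other way from their relative HNRNPU, a scaffold-attachment protein that binds RNA and chromatin. HNRNPUL2 (ENSSSCG00000028542) was at 2.12, 2.02, 1.45 and 1.82 scaled TPM in pgEpiSC and at 4.58 and 5.04 in pEF (-1.03 ± 0.15, adjusted p = 0.000713). HNRNPUL1 (ENSSSCG00000030049) was at 12.6, 14.9, 10.7 and 11.7 in pgEpiSC against 19.1 and 20.1 scaled TPM in pEF (-0.62 ± 0.22, adjusted p = 0.0365). Both sets lay wholly below pEF after scaling. As deposited the groups overlapped and neither was called, at -0.52 (adjusted p = 0.511) and -0.01 (adjusted p = 0.996), below the all-gene median of 0.48. The call of HNRNPUL1 was lost without pgEpiSC replicate 1, 3 or 4 (-0.62, -0.55 and -0.60) and without pEF replicate 1 or 2 (-0.73 and -0.62); that of HNRNPUL2 held with each library left out.

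Ratios within a library, chosen after the values were seen, are free of scaling and show unequal change of these genes and HNRNPU, not that HNRNPUL1 or HNRNPUL2 fell. HNRNPUL1 stood at 0.157, 0.171, 0.187 and 0.171 of the level of HNRNPU in pgEpiSC libraries 1 to 4, against 0.548 and 0.531 in pEF. HNRNPUL2 stood at 0.0265, 0.0232, 0.0254 and 0.0266 of HNRNPU in pgEpiSC against 0.131 and 0.133 in pEF. The libraries of a group hardly differed, and the groups were far apart for both ratios.

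HNRNPLL, a regulator of exon skipping in lymphocytes, averaged 10.8 ± 2.25 in pgEpiSC against 12.2 ± 0.275 scaled TPM in pEF (-0.18 ± 0.24, adjusted p = 0.525), while its relative HNRNPL rose. HNRNPLL made up 32.8, 22.8, 34.7 and 37.8% of the sum of the pair in pgEpiSC and 46.3 and 46.2% in pEF. All pgEpiSC libraries lay below both pEF libraries.

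**Figure D4:**
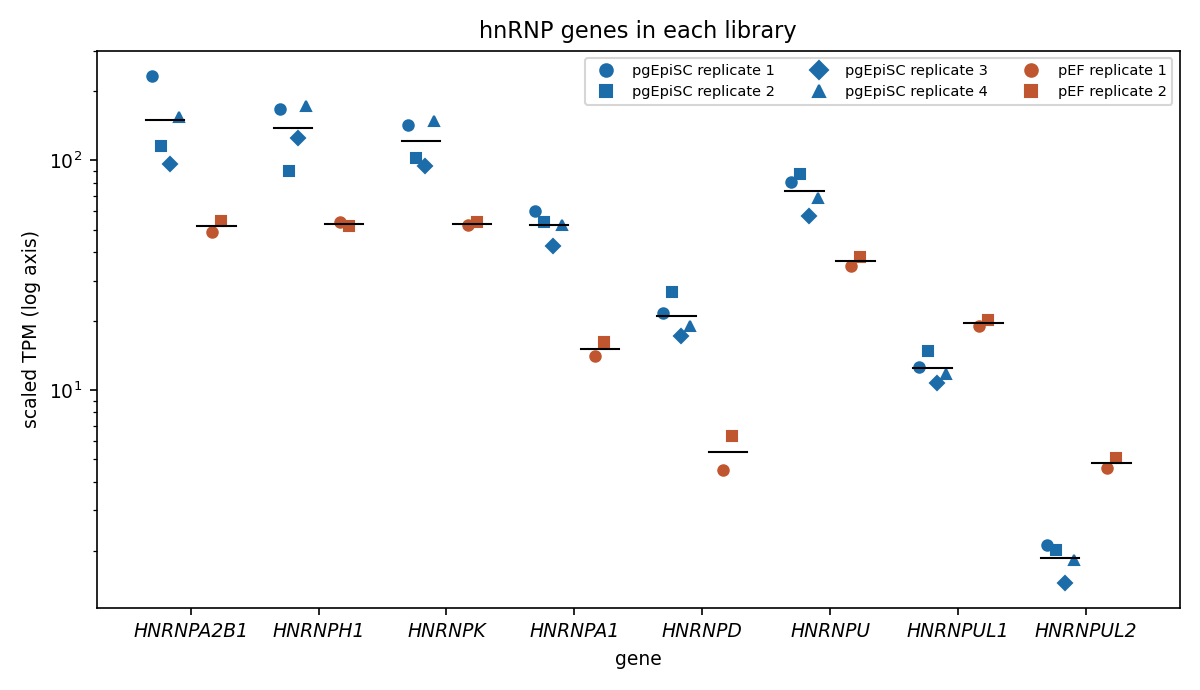
Scaled TPM (log axis) of 8 hnRNP genes in each library; blue symbols are pgEpiSC libraries, orange symbols pEF libraries, and black lines group means. HNRNPA2B1, HNRNPH1, HNRNPK, HNRNPA1, HNRNPD and HNRNPU lay above pEF in every pgEpiSC library, and HNRNPUL1 and HNRNPUL2 below.

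Lsm genes fell into sub-groups by role. Of the 7 genes for the ring on U6 RNA (LSM2 to LSM8), 5 rose, where 27.0% of all tested genes did. In the ring 0 fell (limma, also 0 at an unadjusted p below 0.05), and LSM2 and LSM8 were not called. LSM6 (ENSSSCG00000035973) was at 16.1, 9.99, 12.1 and 18.3 scaled TPM in pgEpiSC, against 1.97 and 2.34 in pEF (2.23 ± 0.26, adjusted p = 0.000193). LSM5 (ENSSSCG00000026064) was at 182, 55.4, 84.6 and 225 in pgEpiSC against 25.9 and 24.4 in pEF (2.19 ± 0.56, adjusted p = 0.0102).

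LSM3 (ENSSSCG00000011601) was at 135, 61.04, 73.7 and 166 scaled TPM in pgEpiSC and 23.2 and 22.4 in pEF (2.09 ± 0.44, adjusted p = 0.00405). LSM7 (ENSSSCG00000013463), the ring gene with the highest level, was at 249, 246, 153 and 267 in pgEpiSC against 99.2 and 101 in pEF (1.16 ± 0.34, adjusted p = 0.0202). In none of these 4 did the groups overlap. Among the 7 partners of the ring, mean levels in pgEpiSC lay between 8.08 ± 2.74 scaled TPM for LSM2 and 229 ± 51.3 for LSM7, and in pEF between 2.16 ± 0.260 for LSM6 and 99.9 ± 0.9997 for LSM7.

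LSM4 rose by 1.18 ± 0.28 (adjusted p = 0.00787). Without pEF replicate 1 or 2 the calls of LSM5 (2.17 and 2.11), LSM7 (1.08 and 1.13) and LSM4 (1.23 and 1.04) were lost, and that of LSM7 also without pgEpiSC replicate 1 (1.11). LSM2, at 7.40, 11.95, 5.47 and 7.50 in pgEpiSC against 6.70 and 8.73 scaled TPM in pEF, overlapped between the groups (0.02 ± 0.28, adjusted p = 0.949). LSM8, the subunit that sets the nuclear ring apart from the cytoplasmic one, averaged 19.6 ± 8.20 in pgEpiSC against 10.7 ± 0.682 in pEF (0.72 ± 0.37, adjusted p = 0.131).

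LSM10 and LSM11 belong to the U7 snRNP, which trims histone mRNAs and takes no part in splicing, and they moved apart. LSM11 (ENSSSCG00000038248) was at 0.514, 0.532, 0.354 and 0.424 scaled TPM in pgEpiSC and 0.889 and 1.58 in pEF (-0.60 ± 0.15, adjusted p = 0.0100), while LSM10 averaged 3.10 ± 0.508 in pgEpiSC against 1.83 ± 0.347 in pEF (0.53 ± 0.17, adjusted p = 0.0270). LSM11 lay near the limit of 1 TPM for testing: without pgEpiSC replicate 2 or pEF replicate 2 it was not tested, and as deposited it was not called (-0.31, adjusted p = 0.561). LSM10 lost its call as deposited (0.95, adjusted p = 0.205), without pgEpiSC replicate 1 or 4 (0.49 and 0.50) and without pEF replicate 1 or 2 (0.37 and 0.63).

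LSM14A and LSM14B are cytoplasmic proteins of translationally repressed mRNA. LSM14B rose by 0.52 ± 0.19 (adjusted p = 0.0452), a call lost as deposited (1.09, adjusted p = 0.140), without pgEpiSC replicate 1 or 4 (0.56 and 0.52) and without pEF replicate 1 or 2 (0.48 and 0.49); LSM14A averaged 20.4 ± 5.34 in pgEpiSC against 22.7 ± 1.54 scaled TPM in pEF (-0.18 ± 0.29, adjusted p = 0.606). Within a library LSM14B made up 26.4, 39.95, 36.1 and 28.8% of the pair in pgEpiSC and 21.2 and 22.7% in pEF, without overlap. LSMEM1 and LSMEM2 share only the letters of their symbols with the family and encode membrane proteins. Neither was tested. LSMEM1 averaged 0.0430 ± 0.0223 scaled TPM in pgEpiSC against 0.0166 ± 0.000425 in pEF, and LSMEM2 0.164 ± 0.0884 in pgEpiSC against 0.0824 ± 0.0471 in pEF.

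SF3 genes encode subunits of the U2-associated complexes, and the 6 found by the rule are not all of these subunits. Of 6 genes 2 rose, where 27.0% of all tested genes did, and 0 fell (limma, also 0 at an unadjusted p below 0.05). All 6 folds were positive, between 0.43 and 1.0002. For 5 genes every pgEpiSC library lay above both pEF libraries, where 34.5% of all tested genes did. The count of calls moved with the setting. With quantile normalization 6 rose and with library weights 5, and more of all tested genes rose in these settings as well. A count of 4 rose without pgEpiSC replicate 3, where fewer of all tested genes did than with all libraries. As deposited 1 rose, where 18.0% of all tested genes did. With either pEF library left out fewer SF3 genes were called higher, where fewer of all tested genes were as well. SF3A3 (ENSSSCG00000003643) was at 10.4, 9.38, 7.87 and 9.70 scaled TPM in pgEpiSC and 4.74 and 5.38 in pEF (0.77 ± 0.19, adjusted p = 0.00840). SF3B3 (ENSSSCG00000025323), the large scaffold of the SF3B complex, was at 18.7, 22.1, 19.5 and 18.2 in pgEpiSC against 10.97 and 12.1 in pEF (0.72 ± 0.21, adjusted p = 0.0177). The groups did not overlap for either gene.

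These 2 calls were absent as deposited (1.31 and 1.32, adjusted p = 0.0703 and 0.0641), and without pEF replicate 1 (0.64 and 0.60); SF3B3 was also lost without pEF replicate 2 (0.75). SF3B6 (ENSSSCG00000008587), the small subunit known as p14 that contacts the branch point, had the highest level of the class, at 39.4, 18.3, 21.8 and 45.5 scaled TPM in pgEpiSC and 16.1 and 12.3 in pEF. It was not called (1.0002 ± 0.40, adjusted p = 0.0592), but was as deposited (1.61, adjusted p = 0.0122) and without pgEpiSC replicate 2 (1.21). SF3B2 (ENSSSCG00000012957) was at 9.77, 11.2, 6.70 and 7.90 in pgEpiSC against 5.25 and 6.51 scaled TPM in pEF, groups that lay close to each other (0.51 ± 0.23, adjusted p = 0.0945). SF3B4 and SF3A1 averaged 4.45 ± 1.05 and 4.37 ± 1.31 scaled TPM in pgEpiSC against 2.81 ± 0.228 and 2.95 ± 0.772 in pEF. Without pgEpiSC replicate 3 both SF3B2 (0.61) and SF3B4 (0.58) were called higher.

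The PRPF genes, most of them named for yeast pre-mRNA processing mutants, had folds below 1 unit on log2(scaled TPM + 1). That scale understates genes at a few TPM. Of 11 genes 7 rose, where 27.0% of all tested genes did, and 0 fell (limma, also 0 at an unadjusted p below 0.05). Group means differed by 2.58 times for PRPF40B, 2.20 for PRPF4 and 2.05 for PRPF3. They differed by 1.93 times for PRPF39, 1.72 for PRPF19 and 1.57 for PRPF38A. PRPF3 (ENSSSCG00000030119), a U4/U6 protein, was the steadiest, at 7.97, 7.60, 7.57 and 7.53 scaled TPM in pgEpiSC against 3.84 and 3.66 in pEF (0.87 ± 0.16, adjusted p = 0.00200). All pgEpiSC libraries lay well above both pEF libraries.

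PRPF39 (ENSSSCG00000004997), a U1-associated protein, was at 11.8, 6.99, 13.02 and 13.8 scaled TPM in pgEpiSC and 6.62 and 5.18 in pEF (0.81 ± 0.28, adjusted p = 0.0370). The lowest pgEpiSC library lay just above the higher pEF library. PRPF31 (ENSSSCG00000003263), a U4/U6 protein whose human gene is mutated in a form of retinitis pigmentosa, was at 8.53, 7.58, 5.55 and 7.98 in pgEpiSC against 6.56 and 6.38 in pEF, groups that overlapped (0.16 ± 0.21, adjusted p = 0.529). Its partners on U4/U6 thus rose where it was not called; the difference between them was not tested.

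PRPF4, PRPF40B, PRPF19 and PRPF38A rose by 0.80 ± 0.16, 0.63 ± 0.16, 0.65 ± 0.23 and 0.55 ± 0.16. These genes, PRPF3 and PRPF39 were not called as deposited, with folds of 0.94 to 1.40. For PRPF39 the call was absent without pgEpiSC replicate 1, 3 or 4 (0.80, 0.73 and 0.73) and with either pEF library removed (0.92 and 0.63). Without pgEpiSC replicate 1 or 4 and without pEF replicate 1 or 2 the folds of PRPF19 were 0.69, 0.69, 0.61 and 0.61 and those of PRPF38A 0.56, 0.55, 0.55 and 0.48, with no call. PRPF40B was lost without pEF replicate 1 (0.58) and not tested without pgEpiSC replicate 2 or 3. PRPF8, the U5 protein at the heart of the spliceosome, averaged 8.37 ± 1.81 in pgEpiSC against 5.15 ± 1.59 scaled TPM in pEF (0.61 ± 0.25, adjusted p = 0.0689) and was called higher without pgEpiSC replicate 4 (0.76). PRPF6, the tri-snRNP bridge, averaged 5.51 ± 1.51 in pgEpiSC against 6.91 ± 0.0650 in pEF (-0.31 ± 0.23, adjusted p = 0.270) and was called lower without pgEpiSC replicate 2 (-0.44). PRPF18 overlapped between the groups, at 3.01 ± 0.629 scaled TPM in pgEpiSC and 2.95 ± 0.805 in pEF.

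**Figure D5:**
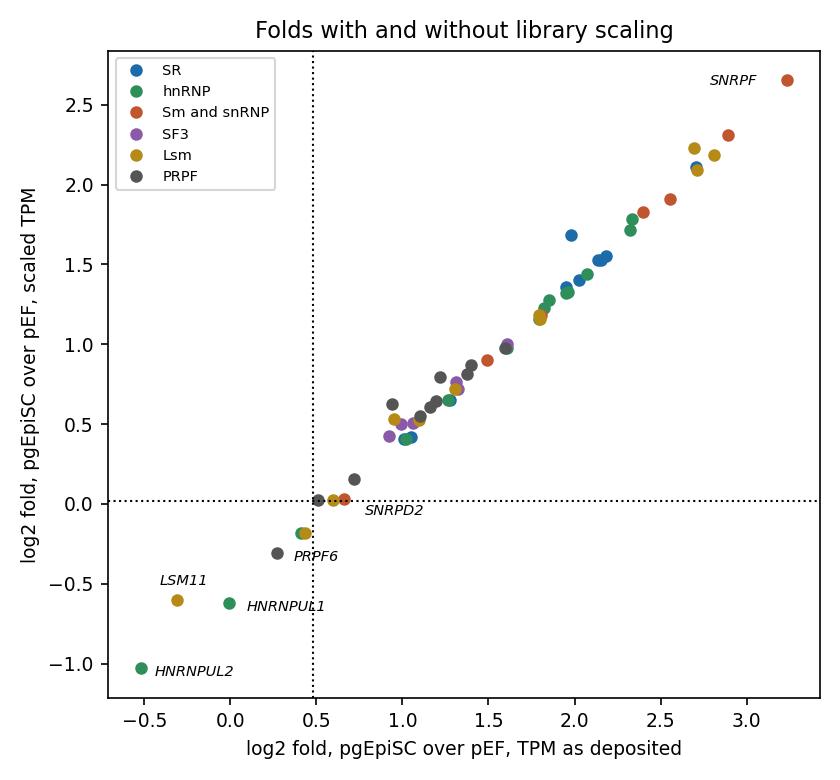
Log2 fold of the 59 tested genes, pgEpiSC over pEF, on deposited TPM (horizontal axis) and on scaled TPM (vertical axis), both on log2(value + 1) and coloured by class; dotted lines mark the median of all tested genes on each scale (0.48 and 0.02). HNRNPUL2, LSM11 and HNRNPUL1 lay lowest on both.

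Genes that work beside these classes were read from lists that hold none of the 61. Among 29 tested spliceosome proteins outside the rule 11 rose, where 27.0% of all tested genes did, 1 fell, where 30.9% did, and 17 were not called (median fold 0.48). The 11 became 7 as deposited, where 18.0% of all tested genes rose. With either pEF library left out fewer were called higher, at shares near those of all tested genes in the same fits. U2SURP, a U2-associated protein with an SR-like domain, averaged 24.1 ± 6.78 scaled TPM in pgEpiSC against 6.22 ± 0.430 in pEF (1.76 ± 0.30, adjusted p = 0.00140). PHF5A, a small SF3B subunit, averaged 9.71 ± 2.31 in pgEpiSC against 2.68 ± 0.263 in pEF (1.52 ± 0.23, adjusted p = 0.000808). SYF2 fell, at 3.14 ± 1.24 in pgEpiSC against 6.36 ± 1.51 in pEF (-0.86 ± 0.29), a call lost as deposited (-0.35) and without pgEpiSC replicate 2 or 3 or pEF replicate 1 (-0.72 without the last).

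The SMN complex loads Sm rings onto snRNAs. Of 15 tested genes of this complex and its helpers 9 rose, where 27.0% of all tested genes did, 0 fell (limma, also 0 at an unadjusted p below 0.05) and 6 were not called (median 0.78). GEMIN5, which recognises the snRNA, averaged 7.005 ± 0.658 scaled TPM in pgEpiSC against 2.64 ± 0.507 in pEF (1.14 ± 0.17). GEMIN6 rose by 1.23 ± 0.36, a call lost without either pEF library (1.12 and 1.28). As deposited 5 of the 15 rose, where 18.0% of all tested genes did. Fewer of the 15 were called higher with either pEF library left out, where fewer of all tested genes were as well.

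Of 9 tested SR protein kinases and import factors 2 rose, a share near the 27.0% of all tested genes, and 0 fell (limma, also 0 at an unadjusted p below 0.05). SRPK1, which phosphorylates SR proteins in the cytoplasm, was at 53.9, 30.8, 36.8 and 52.6 scaled TPM in pgEpiSC against 12.2 and 12.7 in pEF (1.69 ± 0.30, adjusted p = 0.00176). CLK2, a nuclear kinase of SR proteins, averaged 5.02 ± 0.0695 in pgEpiSC against 2.698 ± 0.261 in pEF (0.71 ± 0.15), a call lost as deposited (1.21) and without pEF replicate 2 (0.61). Of 19 tested SR-related activators 12 rose, where 27.0% of all tested genes did, and 0 fell (limma, also 0 at an unadjusted p below 0.05), led by TRA2B at 1.46 ± 0.34 and LUC7L3 at 1.26 ± 0.38. TRA2B lost its call without pEF replicate 1 (1.33) and LUC7L3 without either (1.22 and 1.21). Fewer of the 19 were called higher with either pEF library left out, where fewer of all tested genes were as well. Without pEF replicate 1 the share called higher in this list was near that of all tested genes. In the exon junction complex and nonsense-mediated decay list 1 of 9 rose, UPF2 by 1.18 ± 0.21, where 27.0% of all tested genes did. In that list 0 fell (limma, also 0 at an unadjusted p below 0.05).

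Regulators of tissue-type splicing changed in both directions, ESRP1, MBNL1 and MBNL2 by more than any of the 59 splicing factors. Of 25 tested genes 14 rose, where 27.0% of all tested genes did, 4 fell, where 30.9% did, and 7 were not called (median 0.86). With either pEF library left out fewer were called higher, where fewer of all tested genes were as well, and the genes that fell kept their calls. As deposited 13 were higher, where 18.0% of all tested genes were, and 2 lower, where 9.43% were. RBFOX2 (-0.76) and QKI (-0.88), which lost their calls as deposited, are named after their values were seen. ESRP1, the epithelial splicing regulator, was at 7.19, 6.97, 5.78 and 6.35 scaled TPM in pgEpiSC and 0.0415 and 0.0223 in pEF (2.87 ± 0.15, adjusted p = 0.000003). MBNL1, a muscleblind protein that favours splice forms of differentiated cells in human and mouse, was at 2.04, 1.35, 2.46 and 3.09 in pgEpiSC against 34.5 and 24.04 in pEF (-3.23 ± 0.26, adjusted p = 0.000028). The groups were far apart for both, in opposite directions.

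MBNL2, its relative, was at 1.97, 0.275, 0.332 and 2.02 scaled TPM in pgEpiSC and 16.1 and 11.5 in pEF (-2.89 ± 0.40, adjusted p = 0.000489). PTBP2, the neural form of the polypyrimidine tract protein, averaged 11.7 ± 4.1997 in pgEpiSC against 3.17 ± 0.660 in pEF (1.55 ± 0.34), a call lost without pEF replicate 1 (1.35). After scaling, the summed level of the fibroblast markers in the table was, like MBNL2, higher in pgEpiSC libraries 1 and 4. It was 6.39, 2.78, 1.83 and 12.7 scaled TPM in libraries 1 to 4. Among the markers COL1A1 did not follow, at 0.586, 0.565, 0.255 and 0.553 scaled TPM in libraries 1 to 4. The order of the sums depends on the library factors, and the part of the markers in the MBNL2 values was not tested. Because these are bulk libraries, fewer cells of a type and less RNA per cell cannot be told apart in any of these results.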

How the data were processed

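RNA-seq of 4 pgEpiSC and 2 pEF libraries was deposited by the authors as TPM, per the file headers, with 1 row per Ensembl gene (20132 rows). Per the submitters' processing notes, the tools were STAR 2.6.0c and kallisto 0.44.0. What each did, the genome build and the gene models are not given here by any label or header. Symbols came from a gene name table (14062 rows matched, 69.8%), and 2 rows with one symbol were summed. Each library was divided by its median-ratio factor over genes above 0 in all 6. Genes with at least 1 deposited TPM in at least 2 libraries were fitted on log2(scaled TPM + 1) with limma 3.58.1 (R 4.3.3; trended empirical Bayes), with Benjamini-Hochberg adjustment over all tested genes. Fold changes on this scale understate low genes. Simulated data with known folds were put through the fit, and the outcome is not given here. Their spread was drawn independently for each library, so they cannot show how the fit does where libraries resemble each other. Python 3.11.15, pandas 2.3.3, numpy 2.4.6 and matplotlib 3.10.9 made the tables and figures. Genes and lists were chosen with earlier results of these data known. In each class, values per library were given for the 3 genes with the highest levels, for the 2 largest called increases and decreases without overlap between groups, and for genes called against the majority. Paralog pairs, genes that changed call with the scale and genes below 1 TPM were named with shorter values, and SNRPA, SNRPD2 and LSM2 were given in full after their values were seen. From each list up to 2 called genes per direction were named. The alternatives changed the scaling, pseudocount, filter, variance model, library weights and replicate block, and left out each library. Replicate numbers are shared by the groups, but nothing in the labels ties same-numbered libraries together. The values of 1 gene that enters the counts are not reported here.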

Additional observations from a re-analysis of the deposited data

Results flagged for a closer look

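A library of pgEpiSC stood apart from the other 3 in 3 of 76 quantities checked with Dixon's criterion, and chance flags about 1 in 20. PRPF3 was at 7.97 scaled TPM in replicate 1, above the others. PRPF38A was at 6.74 scaled TPM in replicate 3, below the others. The splicing factors held 1.51% of listed TPM in replicate 3, above the others. For PRPF3 and for the share the gap was small beside the distance to pEF.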

How the results depend on the processing

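With a library left out, 13 to 40 of the 59 splicing factors were called higher, and 7 to 35 as deposited, with 7 without pEF replicate 1 and 25 without pEF replicate 2. Called lower, against 3 after scaling, were 0 as deposited, 1 at a mean TPM of at least 5, 1 with the replicate block, 0 as deposited with the replicate block, 1 to 3 with a library left out, and 0 as deposited with any library left out. Of all tested genes, 1229 were called higher and 1032 lower at a mean TPM of at least 5, and 983 lower as deposited; leaving out a library gave 1685 to 2562 higher and 2142 to 3225 lower.

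The PRPF median log2 fold less that of all genes was 0.67 as deposited, 0.70 rescaled to 1000000, 0.71 with quantile normalization, 0.72 and 0.36 with pseudocounts of 0.1 and 5, 0.45 at a mean TPM of at least 5, 0.54 with library weights, 0.71 with the replicate block and 0.55 to 0.72 with a library left out. HNRNPUL1 turned positive as deposited with the replicate block (0.22) and as deposited without pgEpiSC replicate 1 (0.21), pgEpiSC replicate 4 (0.23) or pEF replicate 2 (0.37). The SR share difference, 0.0931 percentage points, ran from -0.604 to 0.720 with a library left out, and was -0.254 and -0.330 without pgEpiSC replicate 3 and pEF replicate 1. The Lsm share difference was 2.44 points for U6 and U7 genes only, and the SNRPD2 to SNRPD1 difference -3.66 to -2.55. The cause was not tested.

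Same-numbered libraries had correlations of deviations of 0.0671 and 0.113. With 2 pEF libraries the deviations mirror each other, so the other pEF library gave -0.0671 and -0.113. These values therefore cannot decide whether libraries were paired. The numbers were not taken to pair them because no label ties them together. With the replicate block 32 splicing factors were called higher and 1 lower. Depth is unknown, and the 2 pEF libraries limit precision.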
